A study of Mus musculus with 6 samples.

Results

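Ligands, inhibitory Smads and Id genes of the TGF-beta and BMP pathways were followed in tumour cells that carried a guide RNA against Jag2, the gene of a Notch ligand, or a scrambled guide. The genes were chosen by symbol: the ligand genes Tgfb1, Tgfb2, Tgfb3, Inhba and Bmp4, the inhibitory Smad genes Smad6 and Smad7, and the target genes Id1, Id2 and Id3. All 10 matched 1 row each among 55334 gene rows, and all 10 passed the low-count filter that left 16049 genes. Both groups were Lewis lung carcinoma (LLC) cells, a mouse lung cancer line that carried green fluorescent protein (GFP), grown as flank tumours in mice. The JAG2KO group (3 libraries) had received a guide RNA against Jag2 and the Scramble group (3 libraries) a scrambled one. At the end of growth, tumours were dissociated and sorted for cells that were positive for GFP and negative for CD45, a marker of blood-derived cells, and for the dead-cell dye DAPI. The labels do not say whether the JAG2KO cells were 1 clone or a mixed population, or whether each library came from its own mouse. The p-values therefore describe the spread among these 6 libraries, part of which may be technical. No source used here gives the strain or age of the mice.

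TGF-beta ligands are secreted in a latent form, are released outside the cell and bind paired type I and type II receptor kinases, which phosphorylate the receptor Smads Smad2 and Smad3. BMP ligands act through a related receptor set on Smad1, Smad5 and Smad9, and activin A, a dimer of the Inhba product, shares the Smad2 and Smad3 branch. Smad6 and Smad7 are induced by the pathway and inhibit it, and the Id genes, which encode helix-loop-helix proteins without a DNA-binding region, are classical BMP targets that sequester E proteins. In tumours the TGF-beta branch is known for effects on matrix, epithelial state and immune cells.

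Libraries held 37036772 to 42914376 counts in JAG2KO and 39448304 to 43923565 in Scramble. Levels are given as CPM (counts per 1000000, on TMM-scaled library sizes), and 3 counts were worth 0.068 to 0.0811 CPM. Jag2 itself measured 0.514, 0.799 and 1.11 CPM in JagKO2, JagKO3 and JagKO4, against 1.52, 1.1 and 1.02 CPM in Scramble1, Scramble2 and Scramble3, with overlapping groups (adjusted p = 0.318). An edited gene can still be transcribed, so this level does not check the labels. Of the epithelial and lung markers, Krt18 was abundant in both groups (307 ± 26.4 CPM in JAG2KO and 268 ± 7.86 CPM in Scramble) and did not pass the test. Its partner keratin gene Krt8 fell to 4.13 ± 0.84 CPM in JAG2KO, against 124 ± 4.6 CPM in Scramble (adjusted p = 1.72e-10), and Krt19 fell to 0.47 ± 0.127 CPM in JAG2KO, against 1.38 ± 0.0778 CPM in Scramble (adjusted p = 0.0117). The lung lineage genes Nkx2-1 and Sftpb were at 0 counts in every library. Ptprc, which encodes CD45, had 91 to 146 counts per JAG2KO library and 83 to 99 per Scramble library, so few CD45 transcripts remained after the sort but not 0.

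The Id genes and Smad7 were higher in JAG2KO tumour cells, Bmp4 and Tgfb3 were lower, and Tgfb1 was close to level between the groups. Of the 10 genes, 5 rose (Tgfb2, Smad7, Id1, Id2 and Id3), 2 fell (Tgfb3 and Bmp4) and 3 did not pass the test (Tgfb1, Inhba and Smad6), where called means an adjusted p under 0.05 in edgeR's quasi-likelihood test across all genes. Over all 16049 tested genes, 24.3% were called. The median size of the log2 fold change, regardless of sign, was 0.92 over the 10 genes and 0.243 over all tested genes. For 9 of the 10 genes, all but Smad7, no value of one group fell within the range of the other, which held for 40.3% of all tested genes. In bulk samples such as these, a change in the number of cells of a type and a change in RNA per cell cannot be told apart.

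**Figure D1:**
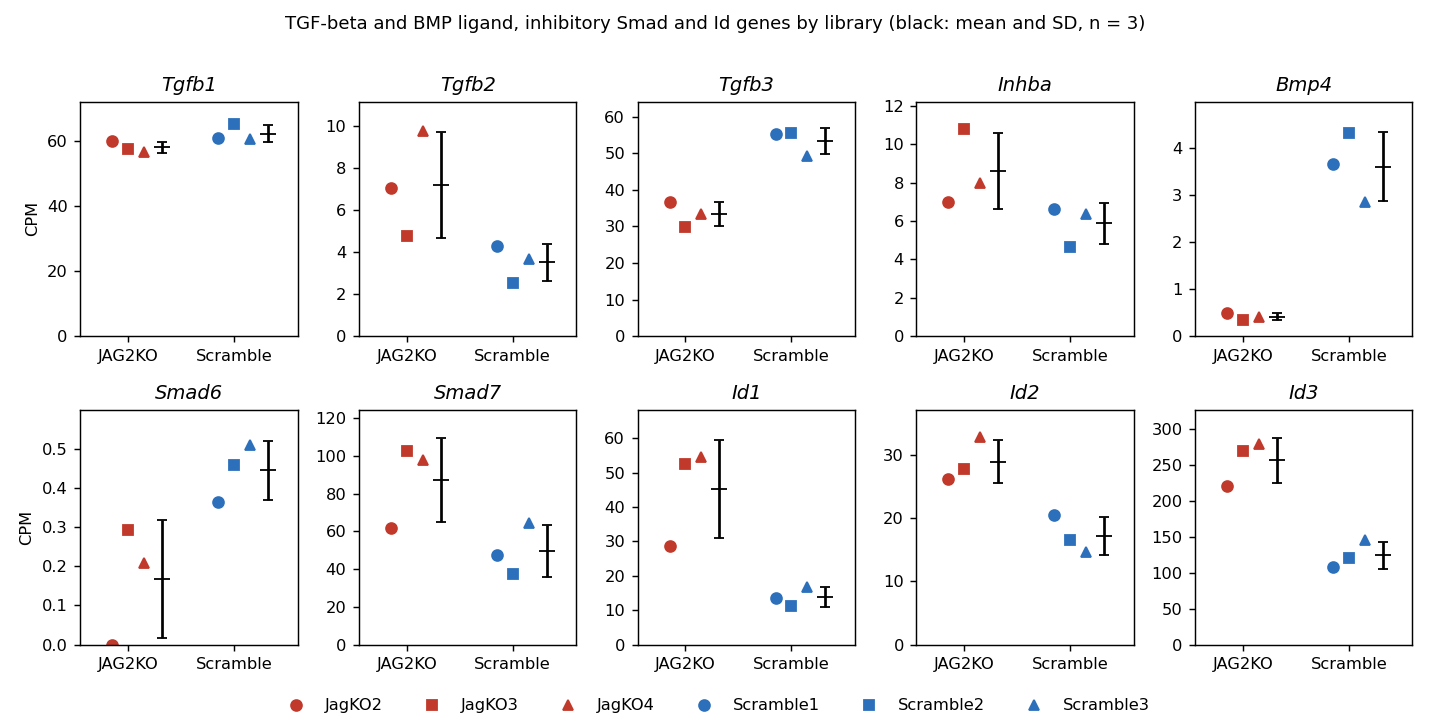
Levels of the 10 genes in each library, in CPM on linear axes that start at 0, with JAG2KO on the left and Scramble on the right of each panel; black marks are means with SD (n = 3). Bmp4 was at most 0.487 CPM in the JAG2KO libraries, and the 3 Id genes were higher in every JAG2KO library than in any Scramble library.

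Tgfb1 encodes the most widely studied TGF-beta isoform (chromosome 7, 25687002 to 25705077, ENSMUSG00000002603.15, GRCm38). Tgfb1 measured 60, 57.6 and 56.8 CPM in JagKO2, JagKO3 and JagKO4, against 60.9, 65.2 and 60.6 CPM in Scramble1, Scramble2 and Scramble3. The JAG2KO libraries lay just below the Scramble ones, with JagKO2 and Scramble3 almost level. Its log2 fold change was -0.10 (SE 0.07, adjusted p = 0.325), so no difference was detectable.

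Tgfb2, the isoform that needs the coreceptor betaglycan for efficient receptor binding, lies on chromosome 1 (186622792 to 186705989, ENSMUSG00000039239.14). It measured 7.03, 4.76 and 9.77 CPM in JagKO2, JagKO3 and JagKO4, against 4.31, 2.55 and 3.69 CPM in Scramble1, Scramble2 and Scramble3. The groups did not overlap, but JagKO3 was nearer to Scramble1 than to JagKO4. The log2 fold change of 1.03 (SE 0.27, adjusted p = 0.0154) corresponded to 2.05-fold. The call was lost without JagKO4 (0.75, adjusted p = 0.0858) or without Scramble2 (0.85, adjusted p = 0.0625), within a range of 2.09e-05 to 0.0858 over all alternatives. An antisense model shares 124 of the 5791 exonic bases of Tgfb2. No source used here says whether counting was strand-specific, so reads from the 2 cannot be told apart there.

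Tgfb3 (chromosome 12, 86056745 to 86079041, ENSMUSG00000021253.7), an isoform known for its part in palate and lung development, moved the other way. It measured 36.6, 29.9 and 33.4 CPM in JagKO2, JagKO3 and JagKO4, against 55.3, 55.5 and 49.3 CPM in Scramble1, Scramble2 and Scramble3. All JAG2KO values were below all Scramble values, with a gap wider than the range within either group. Tgfb3 had a log2 fold change of -0.68 (SE 0.09, adjusted p = 0.000215), which ranged from -0.75 to -0.61 when any 1 library was left out. Opposite-strand models share 163 and 257 of its 3383 exonic bases.

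Per exonic length (RPKM, the CPM per kilobase of exon), the 3 isoform genes together measured 22.6 ± 1.43 in JAG2KO and 28.7 ± 1.33 in Scramble (SD, n = 3 each). Tgfb3 made up 43.5 ± 1.61% of that sum in JAG2KO and 54.9 ± 1.27% in Scramble. Tgfb1 was the larger part in JAG2KO, with 51.1 ± 2.63%, against 43 ± 1.41% in Scramble, and Tgfb2 held 5.46 ± 1.78% in JAG2KO and 2.12 ± 0.569% in Scramble. Per exonic length, the order of the leading isoforms was therefore opposite in the groups, in 3 of 3 libraries of each. That order depends on the exon lengths used, 5042 bases for Tgfb1 and 3383 for Tgfb3. In CPM, Tgfb1 was above Tgfb3 in every library of both groups. The differences in the sum and in the 3 shares each had an exact two-sided permutation p = 0.1, the smallest that 3 against 3 allows. After Benjamini-Hochberg adjustment over 9 such quantities it was 0.129.

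**Figure D2:**
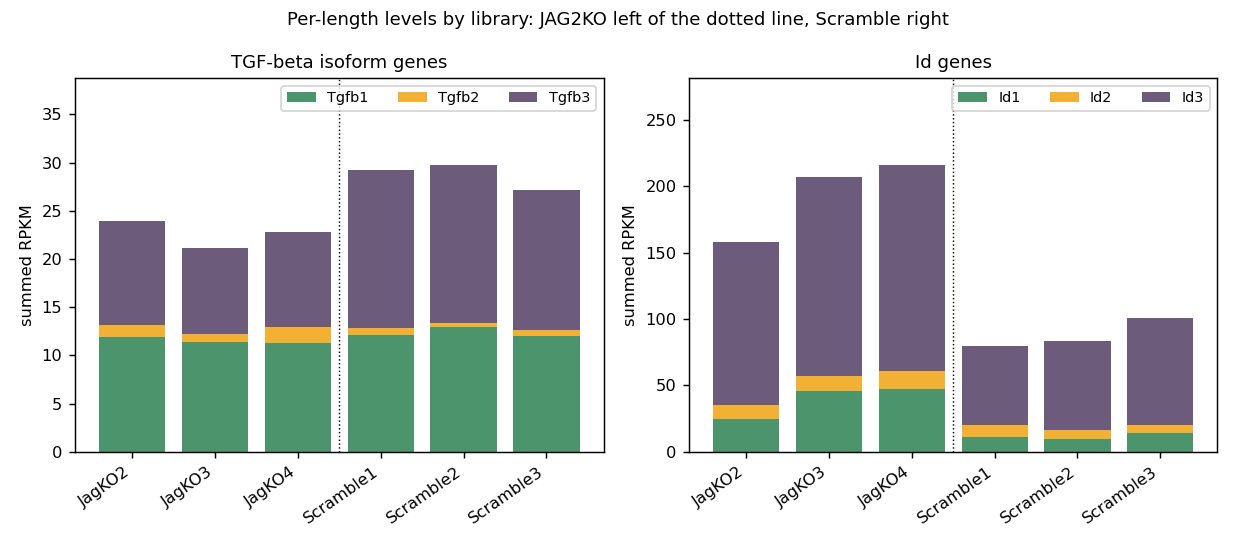
Summed per-length level (RPKM) of the TGF-beta isoform genes (left) and of the Id genes (right) in each library, stacked by gene, with JAG2KO left of the dotted line and Scramble right of it. The isoform sum is 21.1 to 23.9 RPKM in JAG2KO and 27.2 to 29.8 RPKM in Scramble, and the Id sum is 158 to 216 RPKM in JAG2KO and 80 to 101 RPKM in Scramble.

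Inhba encodes the beta-A subunit of activin A (chromosome 13, 16011851 to 16031621, ENSMUSG00000041324.14). It measured 6.98, 10.8 and 7.99 CPM in JagKO2, JagKO3 and JagKO4, against 6.6, 4.66 and 6.39 CPM in Scramble1, Scramble2 and Scramble3. The groups were apart, with JagKO2 only slightly above Scramble1. The log2 fold change of 0.55 (SE 0.20, adjusted p = 0.0662) missed the threshold. It passed without JagKO2 (0.68, adjusted p = 0.0208), without the low-count filter (adjusted p = 0.0206) and in DESeq2 (adjusted p = 0.0422), within a range of 0.0206 to 0.246 over all alternatives.

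Bmp4, a ligand of the BMP branch, showed the largest change of the 10 genes (chromosome 14, 46383520 to 46390669, ENSMUSG00000021835.15). It measured 0.487, 0.346 and 0.416 CPM in JagKO2, JagKO3 and JagKO4, against 3.65, 4.31 and 2.85 CPM in Scramble1, Scramble2 and Scramble3. In counts, that was 49 over the JAG2KO libraries and 461 over the Scramble libraries. Even the lowest Scramble library was far above the highest JAG2KO library. Bmp4 was 8.62-fold lower in JAG2KO, a log2 fold change of -3.11 (SE 0.31, adjusted p = 2.3e-05) that stayed between -3.25 and -2.95 with any 1 library left out. An opposite-strand coding model, Gm15217, shares 89 of its 2248 exonic bases.

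The 250 bases before the RefSeq start of Tgfb2 and Bmp4, which rose and fell most among the 5 ligand genes followed here, are shown because these genes moved oppositely while both carry the E-box hexamer CACGTG there (GRCm38.p6; Tgfb2 at chr1:186705990-186706239 and Bmp4 at chr14:46390670-46390919, both on the minus strand). Capitals mark this E-box, the TATA box motif TATAAA and the GC box motif GGGCGG, all searched on both strands.
Tgfb2: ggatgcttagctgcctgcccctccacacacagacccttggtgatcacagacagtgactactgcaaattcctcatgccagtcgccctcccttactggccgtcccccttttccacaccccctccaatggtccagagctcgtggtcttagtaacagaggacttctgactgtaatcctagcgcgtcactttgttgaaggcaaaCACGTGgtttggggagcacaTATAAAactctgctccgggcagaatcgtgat
Bmp4: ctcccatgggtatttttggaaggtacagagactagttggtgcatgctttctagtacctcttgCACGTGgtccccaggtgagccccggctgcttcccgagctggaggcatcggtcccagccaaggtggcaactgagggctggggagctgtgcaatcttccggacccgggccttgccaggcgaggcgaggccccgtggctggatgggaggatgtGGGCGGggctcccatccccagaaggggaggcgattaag
In Tgfb2 the E-box begins 51 bases and TATAAA 31 bases before the start. In Bmp4 the E-box begins 188 bases and GGGCGG, a GC box, 38 bases before it. Among 32851 promoter windows of the same length, 6.02% hold CACGTG, 12.4% hold TATAAA and 32.7% hold GGGCGG on either strand. Of the 7 genes with a window, CACGTG was in these 2. The palindrome GTCTAGAC, a Smad-binding sequence, was in 0 of the 7 windows and in 0.167% of all. Tgfb3, Smad7 and Id1 had no window, so these motifs were not searched for in them.

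Smad6, which mainly restrains BMP receptors (chromosome 9, 63953076 to 64022059, ENSMUSG00000036867.7), was near the limit of detection. It had 0, 0.293 and 0.208 CPM in JagKO2, JagKO3 and JagKO4, against 0.363, 0.459 and 0.509 CPM in Scramble1, Scramble2 and Scramble3. These values rest on 20 counts over JAG2KO and 56 over Scramble, and the 0 counts of JagKO2 allow up to 0.0811 CPM. The groups were apart, but the log2 fold change of -1.38 (SE 0.79, adjusted p = 0.233) did not pass, and without JagKO2 it was -0.82 (adjusted p = 0.427).

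Smad7, an inhibitor of TGF-beta receptors that the pathway itself induces (chromosome 18, 75367529 to 75395935, ENSMUSG00000025880.11), was abundant. It measured 61.8, 103 and 97.7 CPM in JagKO2, JagKO3 and JagKO4, against 47.4, 37.4 and 64.6 CPM in Scramble1, Scramble2 and Scramble3. JagKO3 and JagKO4 were high, whereas JagKO2 lay below Scramble3, and the groups overlapped. Smad7 was 1.76-fold higher in JAG2KO, a log2 fold change of 0.81 (SE 0.20, adjusted p = 0.0106). Without JagKO2 it was 1.01, and without Scramble1 the adjusted p was 0.0506.

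Id1 rose most among the genes that rose (chromosome 2, 152736251 to 152737410, ENSMUSG00000042745.9). It encodes an inhibitor of basic helix-loop-helix factors that BMP signalling induces in many cell types. Id1 measured 28.8, 52.7 and 54.5 CPM in JagKO2, JagKO3 and JagKO4, against 13.4, 11.1 and 16.8 CPM in Scramble1, Scramble2 and Scramble3. JagKO2 was the low JAG2KO library, but was still above Scramble3. Id1 was 3.3-fold higher in JAG2KO, a log2 fold change of 1.72 (SE 0.22, adjusted p = 0.00014), or 1.97 without JagKO2.

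Id3 was the most abundant of the 10 genes and also rose (chromosome 4, 136143497 to 136145755, ENSMUSG00000007872.3). It measured 219.7, 269 and 278 CPM in JagKO2, JagKO3 and JagKO4, against 108, 120.2 and 145 CPM in Scramble1, Scramble2 and Scramble3. The groups were far apart, and JagKO2 was again the lowest JAG2KO library. Id3 was 2.06-fold higher in JAG2KO, a log2 fold change of 1.04 (SE 0.11, adjusted p = 4.18e-05) that was 0.96 to 1.16 with any 1 library left out.

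Id2, the third Id gene measured, restrains E proteins in many lineages (chromosome 12, 25093799 to 25097140, ENSMUSG00000020644.9). Its levels were 26.3, 27.9 and 32.9 CPM in JagKO2, JagKO3 and JagKO4, against 20.5, 16.5 and 14.6 CPM in Scramble1, Scramble2 and Scramble3. Every JAG2KO library exceeded every Scramble library. Its log2 fold change of 0.75 (SE 0.13, adjusted p = 0.00145) was the smallest of these 3 Id genes. The window before its RefSeq start, which lies inside the gene span above because another GENCODE transcript begins farther upstream, holds the palindrome GGCGCC, the core of BMP-responsive elements. The palindrome begins 231 bases before the RefSeq start, and of the windows of the 7 genes this is the 1 that holds it. It lies within this 30-base stretch (chr12:25096306-25096335, minus strand, GRCm38.p6; capitals mark the palindrome).
Id2: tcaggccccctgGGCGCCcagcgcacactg
Of all promoter windows 9.59% hold GGCGCC, and the window of Id3 does not. Id1 had no window and was not searched.

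Together the Id genes summed to 194 ± 31 RPKM in JAG2KO and 88.3 ± 11.5 RPKM in Scramble (SD, n = 3 each), with an exact two-sided permutation p = 0.1 (0.129 adjusted over the 9 quantities). Id1 made up 19.8 ± 3.55% of that sum in JAG2KO and 13.4 ± 1.67% in Scramble (exact two-sided permutation p = 0.1, 0.129 adjusted). The share of Id3 was 74 ± 3.04% in JAG2KO and 78.4 ± 2.91% in Scramble, and that of Id2 was 6.19 ± 0.64% in JAG2KO and 8.18 ± 2.3% in Scramble (exact two-sided permutation p = 0.2 and 0.3, 0.225 and 0.3 after adjustment). With 3 libraries in each group the smallest possible p is 0.1, so this test could not set any of the 3 shares apart. For each of the 3 genes, every JAG2KO library was above every Scramble library.

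**Figure D3:**
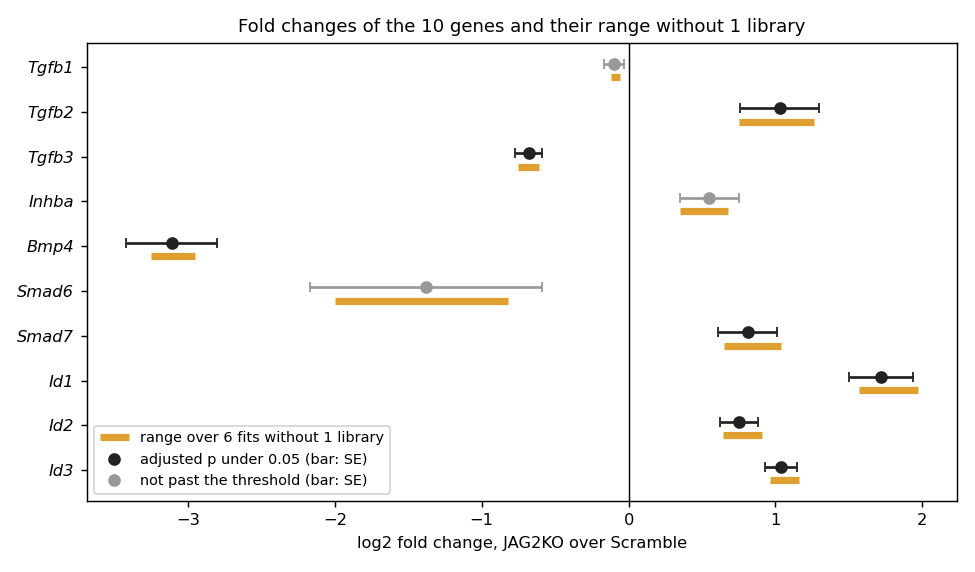
Log2 fold change of each gene, JAG2KO over Scramble, with its SE (black where the adjusted p is under 0.05, grey where not); orange bars give the range over the 6 fits that each leave out 1 library. No orange bar crosses 0, and Smad6, with the fewest counts, has the widest one, ending at -0.82.

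Ordered by level per length, Id3 led in both groups, with 143 ± 17.5 RPKM in JAG2KO and 69.4 ± 10.6 RPKM in Scramble. In JAG2KO it was followed by Id1 (39.1 RPKM), Smad7 (19.3), Id2 (11.9), Tgfb1 (11.5), Tgfb3 (9.84), Inhba (1.35), Tgfb2 (1.24), Bmp4 (0.185) and Smad6 (0.0521). Neighbours in that order overlapped over the JAG2KO libraries for Id2 with Tgfb1 and for Inhba with Tgfb2. In Scramble, Tgfb3 came second (15.8 RPKM), then Tgfb1 (12.3), Id1 (11.9), Smad7 (11), Id2 (7.06), Bmp4 (1.6), Inhba (0.92), Tgfb2 (0.607) and Smad6 (0.138). There Tgfb1 overlapped with Id1, Id1 with Smad7, Smad7 with Id2, and Inhba with Tgfb2. Bmp4 thus stood above Inhba and Tgfb2 in Scramble, and below both in JAG2KO.

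Libraries of 1 group also differed among themselves, and whether their order forms a pattern was not tested. JagKO2 was the lowest JAG2KO library for 6 of the 10 genes, namely Inhba, Smad6, Smad7, Id1, Id2 and Id3, and the highest for Tgfb1, Tgfb3 and Bmp4. In Scramble, Scramble3 was the highest for Smad6, Smad7, Id1 and Id3, and the lowest for Tgfb1, Tgfb3, Bmp4 and Id2. Scramble2 was the lowest as often, for 4 genes, and some ranks were near ties. The coefficient of variation was 2.89% in JAG2KO and 4.13% in Scramble for Tgfb1. It was 31.6% and 21% for Id1, and 34.8% and 25.4% for Tgfb2, in JAG2KO and Scramble.

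Because whole chromosomes differed in their share of called genes, each gene was set beside the 14 nearest genes with a mean of at least 2 CPM, 7 on each side. Of 11493 such genes in all, 1645 were higher and 1779 lower in JAG2KO. Around Bmp4, 0 neighbours were higher and 4 lower (median log2 fold change 0.04), on a chromosome where 97 of 385 other genes were higher and 20 lower. Around Tgfb3, 0 were higher and 4 lower, all 14 neighbours had a negative log2 fold change (median -0.31, from -1.26 to -0.08), and 132 of 406 other genes on chromosome 12 were lower against 30 higher. The part of that regional shift in the fall of Tgfb3 was not tested. Id2 lies on the same chromosome and rose, with 3 neighbours higher and 5 lower (median -0.14). Jag2, the gene that the guide targets, is also on chromosome 12, with 0 neighbours higher and 6 lower (median -0.28). Any link between the editing and the shift on this chromosome was not tested.

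Around Id1, 2 neighbours were higher and 4 lower (median -0.07), and the genes next to it on either side had log2 fold changes of -0.25 and -0.30. Around Id3, 3 were higher and 0 lower (median 0.05), with 11 not past the test. Tgfb2 had 0 higher and 2 lower neighbours (median -0.09), and Smad7 had 1 of each (median 0.01). For Inhba, 5 neighbours were higher and 1 lower (median 0.08). Id1, Id3, Tgfb2 and Smad7 thus rose among neighbours whose median log2 fold change lay between -0.09 and 0.05.

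**Figure D4:**
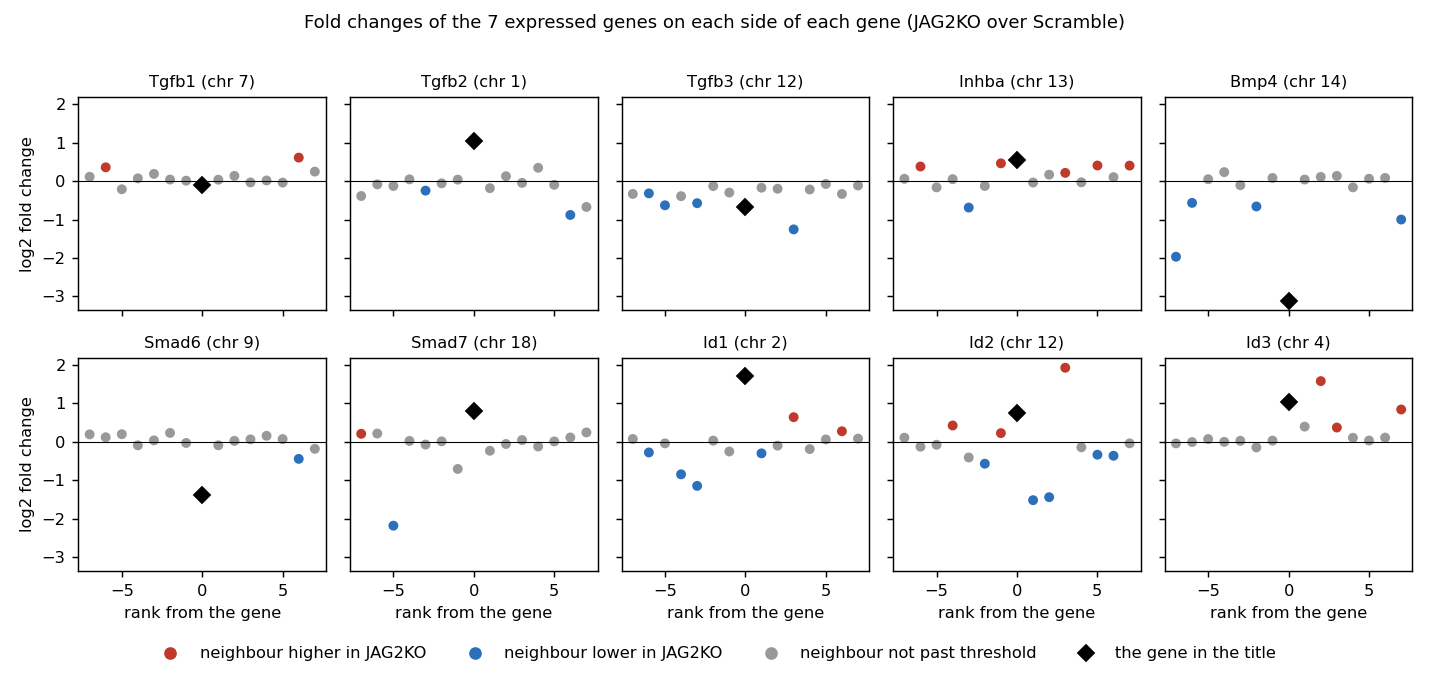
Log2 fold change (JAG2KO over Scramble) of each gene (black diamond at rank 0) and of the 7 expressed genes on each side, ranked by position; red, blue and grey mark neighbours higher, lower or not past the test. Bmp4, Id1, Id3 and Tgfb2 stand away from most of their neighbours, and the neighbours of Tgfb3 all lie below 0.

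Other genes of the pathway were counted in 8 lists chosen by role, against the 11.8% of all tested genes that were called higher and the 12.5% called lower. Among receptors and coreceptors, 3 of 15 tested genes rose, 5 fell and 7 did not pass (median log2 fold change -0.15, against 0.00181 over all tested genes), counts that were 1 to 3 and 3 to 6 when any 1 library was left out. Tgfbr2, the type II receptor that binds TGF-beta, measured 89.3 ± 14.8 CPM in JAG2KO and 135 ± 5.03 CPM in Scramble, a log2 fold change of -0.60 (adjusted p = 0.000982). The coreceptor gene Eng (endoglin) fell by 0.46 and the BMP type I receptor gene Bmpr1a rose by 0.43 on the log2 scale (adjusted p = 0.00366 and 0.00707). The other calls were fragile to single libraries. Of the type I receptor genes, Tgfbr1 (-0.32) lost its call without JagKO3, JagKO4, Scramble1 or Scramble2 (adjusted p = 0.0686 to 0.208), and Acvr1b (-0.30) without JagKO2, JagKO3, Scramble2 or Scramble3 (0.0619 to 0.147). Of the type II receptor genes, Bmpr2 (0.22) lost it without JagKO2, JagKO4, Scramble2 or Scramble3 (adjusted p = 0.051 to 0.0951), and Acvr2a (0.42) without JagKO3, Scramble2 or Scramble3 (0.0565 to 0.0861). Bmpr1b was scarce, with 2, 8 and 1 counts in JagKO2, JagKO3 and JagKO4 and 42, 20 and 23 in Scramble1, Scramble2 and Scramble3 (log2 fold change -2.77, adjusted p = 0.016). It lost its call without JagKO4 or Scramble1 (adjusted p = 0.0634 and 0.0895), and without JagKO3 the 3 counts left gave a Scramble to JAG2KO ratio of 17.9 (95% counting interval 5.93 to 88.6).

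Among the other ligands, 2 of 9 tested genes rose and 3 fell, and 19 of the 28 listed were too low to test. Bmp6 and Bmp7, ligands of the BMP branch, rose. Bmp6 measured 2.08, 1.36 and 1.69 CPM in JagKO2, JagKO3 and JagKO4, against 0.204, 0.344 and 0.204 CPM in Scramble1, Scramble2 and Scramble3 (log2 fold change 2.75, adjusted p = 0.000576). Bmp7 measured 2.05, 1.73 and 2.52 CPM in JagKO2, JagKO3 and JagKO4, against 0.431, 0.0918 and 0.254 CPM in Scramble1, Scramble2 and Scramble3 (8.02-fold higher in JAG2KO, adjusted p = 0.000768, or 12.2-fold without Scramble1). In both, every JAG2KO library was several times above every Scramble library, opposite to Bmp4. Bmp2, a close relative of Bmp4, averaged 1.36 ± 0.122 CPM in JAG2KO and 2.71 ± 0.43 CPM in Scramble (adjusted p = 0.016), and it lost its call without JagKO4 or Scramble3 (adjusted p = 0.0555 and 0.0715). The inhibin subunit gene Inha and Gdf11, a ligand related to myostatin, fell by 1.11 and 0.95 on the log2 scale (adjusted p = 0.00243 and 0.0058).

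Among receptor and common Smads and nuclear regulators, 6 of 19 tested genes rose and 2 fell (median 0.11), counts that were 2 to 6 and 0 to 1 when any 1 library was left out. Smad2, Smad3, Smad4 and Smad5 had log2 fold changes of -0.06, -0.03, 0.03 and 0.10, none of which passed. The 2 that fell, Smad1 (-0.27) and the ubiquitin ligase gene Smurf2 (-0.22), lost their calls without JagKO4 or Scramble1, among others (adjusted p = 0.0601 to 0.165 over the fits without 1 library that lost them). The zinc finger repressor genes Zeb1 and Zeb2 rose by 0.32 and 0.37 (adjusted p = 0.00584 and 0.00249) and kept their calls in every alternative. Skil, a TGF-beta induced corepressor of Smads, measured 171 ± 52.9 CPM in JAG2KO and 109 ± 9.03 CPM in Scramble, with overlapping groups. Skil lost its call without JagKO3, JagKO4, Scramble1 or Scramble2 and in DESeq2 (adjusted p = 0.0623 to 0.095), and the acetyltransferase gene Ep300 without JagKO3, JagKO4, Scramble1 or Scramble3 (adjusted p = 0.0513 to 0.104).

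Extracellular regulators moved both ways, with 4 of 22 genes higher and 4 lower (median 0.19). Gremlin 1 (Grem1), a secreted BMP antagonist, measured 26.1, 37.1 and 33.4 CPM in JagKO2, JagKO3 and JagKO4, against 109, 119 and 85.5 CPM in Scramble1, Scramble2 and Scramble3. Even the lowest Scramble library was far above the highest JAG2KO library (log2 fold change -1.70, adjusted p = 4.39e-06). Fstl3, which binds activin, fell by 0.87 (adjusted p = 0.000548). The antagonist gene Cer1 had 1 count over JAG2KO and 74 over Scramble, a Scramble to JAG2KO ratio of 68.7 (95% counting interval 12 to 2749). Without JagKO3, which held that count, JAG2KO was at least 15.6-fold lower, taking 3 counts over its libraries as the limit. Ltbp2, a latent TGF-beta binding protein family gene, rose by 0.70 on the log2 scale (adjusted p = 0.00168). The other genes of that family moved both ways, with log2 fold changes of 0.21 for Ltbp1, 0.38 for Ltbp4 and -0.29 for Ltbp3, all called. Ltbp1 lost its call without JagKO3, JagKO4, Scramble2 or Scramble3. Nbl1, a BMP antagonist gene, was 3.87-fold higher, or 6.5-fold without Scramble1. Of the integrin and protease genes that can release latent TGF-beta, 3 of 9 rose (Mmp2, Mmp9 and Mmp14, by 1.13, 1.29 and 0.42) and 2 fell (Itgb1 and Itgb3, by 0.23 and 1.14), Itgb1 losing its call without JagKO3, JagKO4, Scramble1 or Scramble2 (adjusted p = 0.0843 to 0.12).

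Of the listed TGF-beta targets, 10 of 19 tested genes rose and 2 fell, so 63.2% were called, with a median log2 fold change of 0.54. These counts were 7 to 13 and 1 to 3 when any 1 library was left out, and 8 rose in DESeq2. Skil, whose call was fragile as given above, is among the 10. Acta2 and Col1a1 (0.54 and 0.91), both among the 10 that rose, are also in the list of fibroblast and pericyte markers. Pmepa1, a TGF-beta induced inhibitor of the receptor Smads, measured 18.8, 16.3 and 17.4 CPM in JagKO2, JagKO3 and JagKO4, against 1.59, 1.79 and 1.86 CPM in Scramble1, Scramble2 and Scramble3. The groups were tight and far apart (log2 fold change 3.33, SE 0.15, adjusted p = 2.89e-08). Tgfb1i1 (Hic-5), a focal adhesion adaptor, rose by 1.96 (adjusted p = 3.63e-07). Tgfbi and Postn, secreted matrix proteins, rose by 0.92 and 0.95 (adjusted p = 8.83e-07 and 0.000391). The fibronectin gene Fn1 and Snai2 were the 2 that fell (-0.63 and -0.53), Snai2 losing its call without Scramble1 (adjusted p = 0.0525). Of the listed BMP targets other than Id1 to Id3, 1 of 10 tested genes rose (Atoh8, log2 fold change 2.77, adjusted p = 0.00669) and 3 fell (Grem1, Gata2 and Tbx3), with a median of -0.26. Atoh8 was scarce, with 72 counts over JAG2KO and 11 over Scramble. With a minimum of 1 CPM in 3 libraries, 0 of the listed BMP targets were called higher. Tbx3 lost its call without Scramble1 or Scramble2 (adjusted p = 0.0619 and 0.0674). Id4, the remaining Id gene, was below the low-count filter, with 44 counts over JAG2KO and 21 over Scramble.

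Of the partners of the Id proteins, 4 of 10 tested genes rose and 0 fell (median 0.20). Tcf4 and Tcf3, E protein genes, rose by 0.56 and 0.48 (adjusted p = 0.000213 and 0.00135), while the E protein gene Tcf12 had 0.11 and did not pass. The ETS factor gene Elk4 rose by 0.36 (adjusted p = 0.00339). Hes1, a Notch target, measured 14.3, 15.4 and 20.2 CPM in JagKO2, JagKO3 and JagKO4, against 12.2, 8.63 and 11.5 CPM in Scramble1, Scramble2 and Scramble3. It rose by 0.63 (adjusted p = 0.0154), a call lost without JagKO4 or Scramble2 (adjusted p = 0.0796 and 0.0623).

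**Figure D5:**
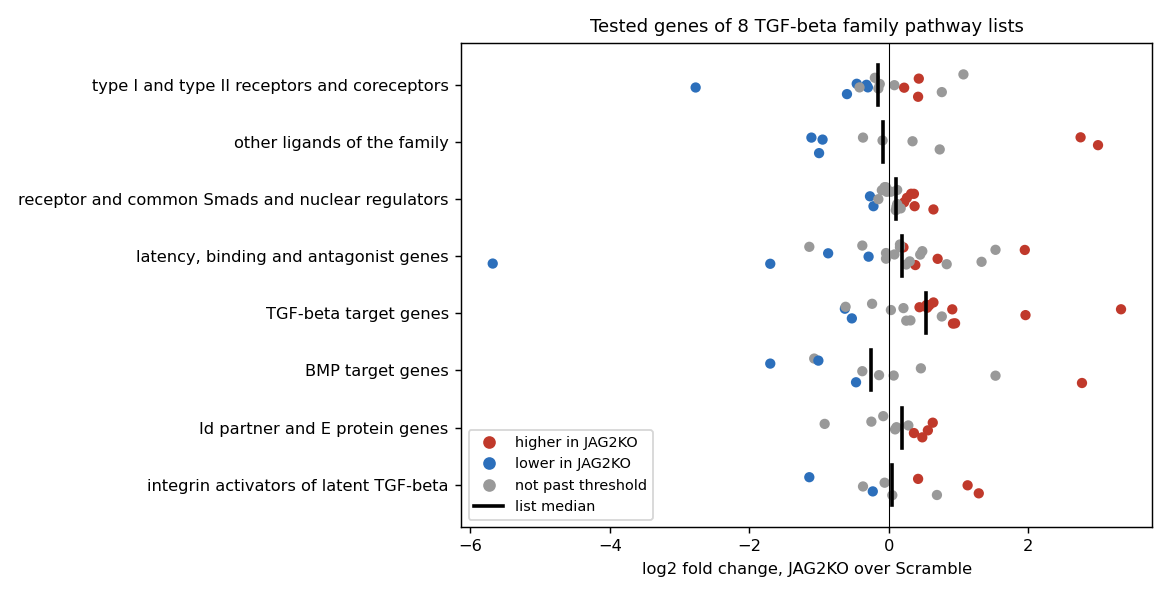
Log2 fold change (JAG2KO over Scramble) of each tested gene in 8 pathway lists; red, blue and grey mark genes higher, lower or not past the test, and black bars are list medians. The list of TGF-beta targets has the highest median (0.54) and that of BMP targets the lowest (-0.26); the leftmost point is Cer1, whose fitted value rests on 1 JAG2KO count.

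Markers of other cell types and of epithelium differed between the groups too. For comparison, 11.8% of all tested genes were called higher and 12.5% lower. Endothelial markers, of which 7 of 13 rose and 0 fell, summed to 68.6 to 93.9 CPM in JAG2KO and 47.5 to 51.7 CPM in Scramble. Fibroblast and pericyte markers, of which 7 of 13 rose and Fap fell, summed to 6213 to 9796 CPM in JAG2KO and 4871 to 4944 CPM in Scramble, and JagKO2, low for the Id genes and Smad7, was the highest of them. Col3a1 alone averaged 5623 CPM of a mean sum of 7550 CPM in JAG2KO, and 3616 of 4913 CPM in Scramble. Macrophage and other CD45-positive cell markers summed to 98.6 to 118 CPM in JAG2KO and 65.1 to 74.3 CPM in Scramble (4 of 14 higher, 1 lower), and platelet markers to 5.38 to 9.74 CPM in JAG2KO and 5.19 to 5.65 CPM in Scramble (1 of 4 higher). Of the mean macrophage sums, 111 CPM in JAG2KO and 71.2 CPM in Scramble, Lyz2 held 47.8 and 21.3 CPM. Epithelial and lung markers, with 0 of 5 tested genes higher and Krt8 and Krt19 lower, summed to 284 to 339 CPM in JAG2KO and 391 to 399.6 CPM in Scramble. That lower sum came from Krt8 (4.13 CPM in JAG2KO and 124 CPM in Scramble). Krt18 was higher in every JAG2KO library than in any Scramble library but did not pass, and Epcam and Cdh1 overlapped between the groups. In the other 4 lists 0 markers were at 0 in all libraries. The lists did not order the JAG2KO libraries alike. The platelet sum was lowest in JagKO2 (5.38 CPM, against 9.74 in JagKO3 and 9.42 in JagKO4). The endothelial sum was highest in JagKO4 (93.9 CPM). The epithelial and lung sum was highest in JagKO2 (339 CPM), and the macrophage sum was 117, 118 and 98.6 CPM in JagKO2, JagKO3 and JagKO4. Whether these marker transcripts came from other cells or from the tumour cells themselves was not tested. The part of the marker differences, including the epithelial one, in the changes of the 10 genes and of the target lists was not tested either.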

How the data were processed

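PolyA RNA of sorted LLC tumour cells was sequenced, 3 JAG2KO and 3 Scramble libraries. Values deposited by the authors are raw counts for each gene in each library, made with STAR 2.7.7a and HTSeq 0.11.2 per the submitters' processing notes. No source used here names the build, annotation, strand setting or read filters. Scramble columns carry the titles' numbers, but the JAG2KO columns run from 2 to 4 and the titles from 1 to 3, so JAG2KO libraries are called by column name and not paired.

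Symbols came from the reference table (55154 of 55334 IDs), and positions and exon lengths from the GENCODE M21 annotation of GRCm38, which may differ from the authors'. Promoter windows are the 250 bases before the start in RefSeq GRCm38.p6, with 7 of the 10 genes matched. The main test was edgeR 4.0.16 in R 4.3.3 (filterByExpr with minimum count 10 and total 15, TMM factors, quasi-likelihood F test, Benjamini-Hochberg adjustment over 16049 genes, called under 0.05). Log2 fold changes are JAG2KO over Scramble, and the SE is the size of the fold change divided by the square root of F. Counting intervals cover counting error only. Shares per library were compared by exact permutation. As alternatives, DESeq2 1.42.0, limma-voom (limma 3.58.1), RLE scaling, scaling by totals, no filter, a minimum of 1 CPM in 3 libraries, and fits without each library were run. The procedures were tested on simulated counts. The genes and lists were chosen with earlier results of these data known. The text names the 10 genes, Jag2 and up to 4 called genes with the smallest p of each list; others were named after their values were seen, where a count was 5 or fewer or for comparison with a named gene.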

Additional observations from a re-analysis of the deposited data

How the results depend on the processing

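Of 119 alternative values for the 10 genes, 113 kept their direction and side of the threshold, 3 lost the call (Tgfb2 and Smad7), 3 gained it (Inhba) and 0 changed sign. With 1 library left out, 4 to 6 of the 10 genes were called higher and 2 lower. Over all genes these counts were 1356 to 1926 higher and 1349 to 2093 lower, against 1891 and 2005 with all libraries. Over the pathway lists they were 24 to 36 higher and 13 to 22 lower, against 32 and 20, the value of 13 being without Scramble1. Of 789 alternative values for the other named genes, 726 were unchanged in this sense, 59 lost the call, 0 gained it and 4 changed sign, none of them past the threshold. With 1 library left out, log2 fold changes ranged from -0.11 to 0.02 for Smad2, from -0.17 to 0.05 for Smad3 and from -0.01 to 0.07 for Smad4. The cause of these changes, including the smaller number of samples, was not tested. The median log2 fold change of all genes was 0.00181 with TMM factors, 0.00702 with RLE factors and 0.00657 with library totals alone. Depth limits Smad6, with 20 counts in JAG2KO, which the minimum of 1 CPM removed. No paired analysis was possible because the JAG2KO columns do not carry the replicate numbers of the sample titles.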
